A study of Mus musculus with 29 samples.

Results

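The transcript changes of mouse embryonic stem cells that differentiated in Activin, CHIRON and LIF were set against those of stem cells kept undifferentiated, per the labels, in the same 3 agents, on 13 of the 29 single-colour Agilent arrays of the study. The members were chosen by their labels: 3 Diff, 3 ESC, 4 NACL and 3 2iL arrays. Diff are cells of the double reporter line HRHnG grown for 7 to 8 days in Activin, CHIRON and LIF and labelled as differentiated towards primitive endoderm, and ESC are undifferentiated HRHnG cells in 2i with LIF. NACL are stem cells adapted for at least 3 passages to N2B27 medium with Activin, CHIRON and LIF. 2iL are stem cells adapted for at least 3 passages to 2i with LIF. The NACL arrays hold the lines HVMC (NACL 1 and 2), E14 (NACL 3) and E14-NanogGFP (NACL 4), and the 2iL arrays hold HVMC (2iL 1), E14 (2iL 2) and E14-NanogGFP (2iL 3). All these lines are male and all 4 cultures contained LIF. The basal medium of the Diff cultures is not given in the sources used here beyond its name, nEnd medium. The cell line, the array set and the length of culture differ between both changes and cannot be told apart from the difference between differentiating and stable culture. Beyond the cell lines within NACL and 2iL, what separates the replicates of these groups is not stated. The p-values measure only the spread between arrays within groups, estimated from all 29 arrays of the study together. In NACL and 2iL that spread includes differences between lines.

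In 2i medium, stem cells of the early mouse embryo are held in the naive state by one inhibitor of the FGF to ERK pathway and one inhibitor of GSK3, CHIRON, which activates Wnt signalling. Moving cells to Activin, CHIRON and LIF keeps the GSK3 inhibitor and LIF, takes away the block of ERK and adds a ligand of the Activin and Nodal pathway. Primitive endoderm is the first extraembryonic endoderm of the embryo: it secretes basement membrane and takes up maternal nutrients through large uptake receptors, and its specification needs FGF and ERK signalling. The comparison asks which responses to the medium were common to both settings and which belonged to the differentiating culture. The changes compared were Diff minus ESC, NACL minus 2iL, and the first minus the second, which is the difference of differences.

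Each level is a log2 signal relative to the 75th percentile of its array, and each change is a log2 difference of group means with its standard error (SE). Per array, 49.2% (NACL 2) to 79.7% (NACL 4) of the probes exceeded background clearly (the scanner's well above background call). What part this difference has in the levels of dim genes was not tested. Replicate arrays correlated at 0.956 to 0.986 within groups. All 7 naive stem cell markers checked were well above background on every array of all 4 groups. All 8 primitive endoderm markers were well above background on every Diff array, against 2 of 8 on every ESC array, and 5 of 8 were so on every NACL array, against 3 of 8 on every 2iL array. The summed signal of the 4 fibroblast markers was -1.17 to 0.44 in Diff, -0.54 to -0.12 in ESC, 1.36 to 4.16 in NACL and 0.76 to 1.44 in 2iL (log2). Thy1 made up most of it in NACL, while Col1a1 and Col1a2 stayed low (mean levels -3.38 and -1.38 in NACL, -3.09 and -1.48 in 2iL), and the part of other cells in the results was not tested. In such bulk samples, fewer cells of a type and less RNA per cell cannot be told apart.

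The stable culture shared 636 changes with the differentiating one, and most of what changed in Diff was not called in NACL. Across 16332 genes, limma called 6923 between Diff and ESC (42.4%), 1348 between NACL and 2iL (8.25%) and 4942 in the difference of differences (30.3%), at a Benjamini-Hochberg adjusted p under 0.05. A gene was named shared if both changes were called in the same direction, which held for 331 higher (2.03%) and 305 lower genes (1.87%). These were 9.19% of the Diff calls and 47.2% of the NACL calls. Of the 830 genes called in both changes, 636 moved the same way (76.6%) and 194 moved opposite ways, 124 higher in Diff and lower in NACL (0.759%) and 70 the other way (0.429%). A gene was named differentiation only if it was called in Diff and in the difference of differences but not in NACL, which gave 2290 higher (14%) and 1677 lower genes (10.3%). The mirror class, NACL only, held 133 higher (0.814%) and 131 lower genes (0.802%). The remaining 30.7% of the Diff calls and 18.8% of the NACL calls stayed unresolved, since their difference was not called.

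**Figure D1:**
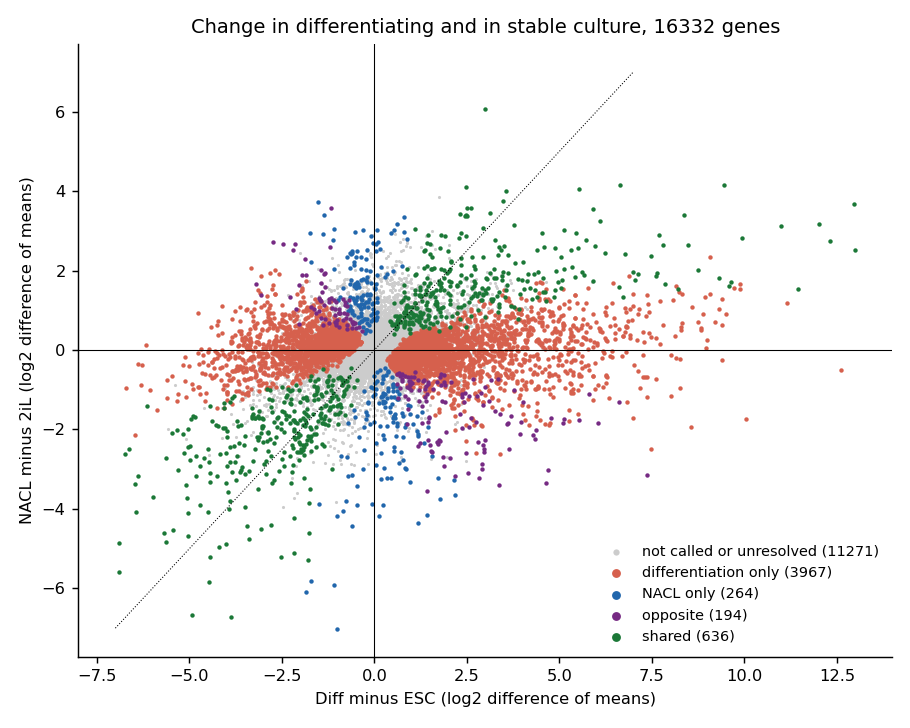
The change of each of 16332 genes in differentiating culture (x axis, Diff minus ESC, log2) is plotted against its change in stable culture (y axis, NACL minus 2iL, log2). Each point is a gene, coloured by class with the number of genes in the legend, and the dotted line marks equal changes; the 3967 differentiation only genes spread along the x axis, while the 636 shared genes lie in the upper right and lower left.

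Across genes, both changes correlated weakly (Pearson r = 0.255 over all 16332 genes, and 0.197 over the 12379 genes well above background on all 13 arrays); genes are not independent replicates and no test was made. Of the 1348 NACL calls, 933 had the same sign in Diff minus ESC (69.2%). Among the 636 shared genes the difference itself was called for 183, of which 172 changed more in Diff and 11 changed more in NACL. For the other 453 it was not called, where its 95% interval reached a median of 1.15 to either side, so equal changes were not shown. The median absolute change over the shared genes was 2.24 in Diff and 1.70 in NACL. The balance of directions depended on the scaling. Centring each array on its median instead moved the median of all genes by 0.361 in Diff minus ESC and by -0.026 in NACL minus 2iL. It raised the share of calls that were higher to 74.1% for Diff minus ESC (55.4% with the 75th percentile) and to 79.3% for the difference of differences (56.2%), and left 411 shared and 100 opposite genes. Within the first scan day alone (2 Diff and 2 ESC arrays) 4426 genes were called in the difference of differences and 550 were shared. Within the slide that holds the lines HVMC and E14 (3 NACL and 2 2iL arrays) the numbers were 4583 and 548. With cell line as a block, 126 genes were opposite, and without 2iL 1 limma called 819 genes between NACL and 2iL.

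Among the shared rises were ERK feedback genes, which the cell transcribes when ERK is active and which then damp the pathway. Of 19 ERK targets and feedback genes tested, 8 rose in Diff and 3 fell, and 8 rose in NACL and 0 fell, where 23.5% of all genes were higher in Diff and 4.12% were higher in NACL. The median change of the list was 1.02 in Diff and 0.86 in NACL, against -0.04 and 0.06 over all genes. The members shared upwards were Dusp4, Dusp6, Egr1, Spry1 and Spry4.

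Dusp4, a phosphatase that switches off ERK in the nucleus, had levels of 2.42, 3.01 and 2.18 in Diff, against -3.47, -3.05 and -3.58 in ESC. In the stable culture Dusp4 stood at 1.44, 0.14, 1.2 and 1.41 in NACL, against -2.04, -2.15 and -3.30 in 2iL. No array of a culture in Activin, CHIRON and LIF overlapped its own 2i arrays, as was so for 56.3% of all genes between Diff and ESC and 15.5% between NACL and 2iL. Dusp4 rose by 5.90 ± 0.48 in Diff (SE, n = 3 and 3; limma adjusted p = 1.2e-09) and by 3.55 ± 0.45 in NACL (n = 4 and 3; adjusted p = 2.3e-05), and the difference of 2.36 ± 0.66 was called (adjusted p = 0.0083).

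Dusp6, the cytoplasmic ERK phosphatase, had levels of 1.16, 1.43 and 2.28 in Diff, against 0.33, 0.49 and -0.29 in ESC. It reached 4.32, 3.95, 4.70 and 4.38 in NACL, against 1.29, 1.79 and 1.25 in 2iL. All NACL arrays lay above all arrays of the other groups, of which Diff and ESC are of another array set and cell line. Its rise was 1.45 ± 0.29 in Diff and 2.89 ± 0.27 in NACL, and the difference of -1.44 ± 0.39 (adjusted p = 0.007) placed it among the 11 shared genes that changed more in NACL; it was not called with arrays centred on their median (adjusted p = 0.14) or with replicate number as a block (adjusted p = 0.12).

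Spry1, an inhibitor of receptor tyrosine kinase signalling, rose by 1.49 ± 0.44 in Diff (adjusted p = 0.0082; 0.05 without ESC 1) and by 1.68 ± 0.41 in NACL (adjusted p = 0.011). The 95% interval of the difference was -1.44 to 1.06. Spry4, of the same family, was well above background on 2 of 3 Diff and 0 of 3 ESC arrays, and on 4 of 4 NACL and 0 of 3 2iL arrays. It was at least 1.72-fold higher in Diff (adjusted p = 0.0069; 0.12 within the first scan day and 0.54 with normexp background correction) and at least 27.0-fold higher in NACL (adjusted p = 3.8e-05). Egr1, an immediate early transcription factor, had levels of 3.76, -0.18 and -0.35 in Diff, against -6.19, -6.22 and -4.28 in ESC, and -1.52, -0.20, -0.46 and 0.12 in NACL, against -5.16, -4.08 and -4.79 in 2iL. Diff 1 stood far above Diff 2 and Diff 3, and the groups did not overlap in either change; 1 of 3 ESC and 1 of 3 2iL arrays were well above background. The NACL rise of Egr1 was not called with replicate number as a block (adjusted p = 0.073).

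Other ERK targets went their own way in Diff. Spred1, which blocks Ras to ERK signalling, fell by 1.15 ± 0.24 in Diff (adjusted p = 0.0004) and rose by 1.06 ± 0.22 in NACL (adjusted p = 0.0036), neither of which was called with arrays centred on their median (adjusted p = 0.068 and 0.053). Etv5, an ETS transcription factor downstream of FGF, fell by 2.02 ± 0.48 in Diff and changed by 0.06 ± 0.45 in NACL; its difference (adjusted p = 0.019) was not called with cell line as a block (adjusted p = 0.074) or without Diff 1 (adjusted p = 0.077). Phlda1, induced by growth factors, rose by 4.01 ± 0.45 in Diff and changed by 0.52 ± 0.42 in NACL, a difference of 3.49 ± 0.61 (adjusted p = 0.00013).

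**Figure D2:**
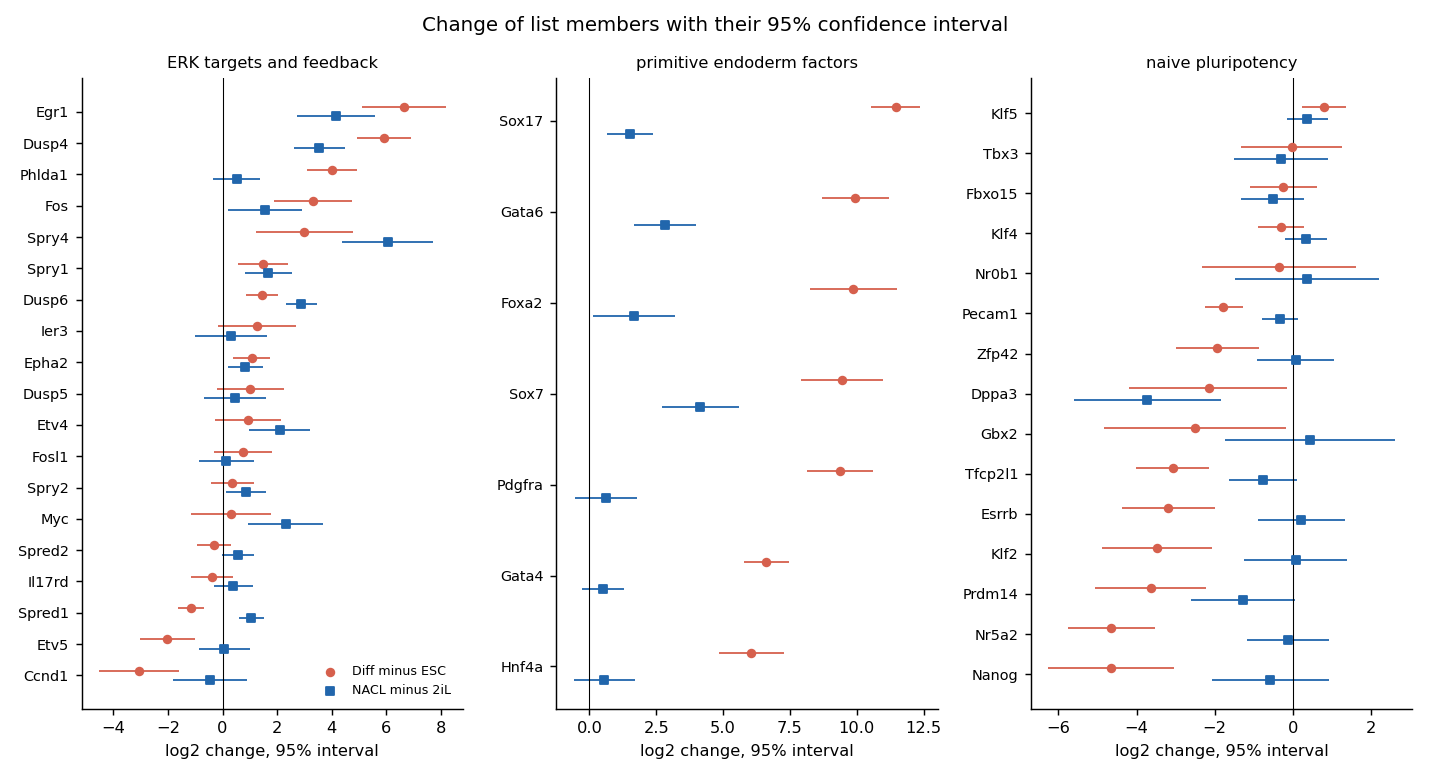
Change of members of 3 gene lists in Diff minus ESC (circles) and NACL minus 2iL (squares), with lines for the 95% confidence interval, in log2 units. Dusp4, Dusp6, Egr1, Spry1 and Spry4 lie right of 0 in both changes, the primitive endoderm factors drawn lie far to the right in Diff, and the squares of most naive pluripotency genes lie near 0.

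Outside the ERK list, 5 more genes were named as shared and higher by the fixed rule, which takes the genes with the largest smaller one of both changes. Pmaip1, the BH3 protein Noxa that promotes cell death, had levels of 2.92, 2.69 and 3.24 in Diff, against -0.67, 0.05 and -0.32 in ESC. Its levels were 2.91, 3.06, 2.56 and 2.03 in NACL, against -0.24, 0.45 and -0.59 in 2iL. Both cultures thus stood apart from their 2i arrays by similar distances, 3.26 ± 0.38 and 2.76 ± 0.35, with a 95% interval of the difference of -0.57 to 1.57. Pxdn, a peroxidase that crosslinks collagen IV, rose by 8.36 ± 0.46 in Diff and by 3.39 ± 0.43 in NACL, a difference of 4.97 ± 0.64 (adjusted p = 3.2e-06). Ap1s3, a subunit of a clathrin adaptor, rose by 5.44 ± 0.41 in Diff and by 2.95 ± 0.38 in NACL. Its difference of 2.50 ± 0.56 was called (adjusted p = 0.0014; 0.054 with replicate number as a block in Diff and ESC and cell line in NACL and 2iL). Nrcam, a cell adhesion molecule of neurons, rose by 4.52 ± 0.46 in Diff and by 2.94 ± 0.43 in NACL. Prph, the neuronal filament protein peripherin, rose by 3.12 ± 0.61 in Diff and by 3.46 ± 0.57 in NACL, where the change was 4.36 on the slide of HVMC and E14 and 1.29 on that of E14-NanogGFP.

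Genes of early post-implantation epiblast and some pluripotency-linked genes were among the shared rises. Of 11 primed epiblast genes, 4 rose and 1 fell in Diff and 3 rose in NACL, and all 3 of these, Fgf5, Sox4 and Tcf15, were shared. Over all genes, 42.4% were called in Diff and 8.25% in NACL, and 2.03% were shared and higher. The Diff count lies near its share. Otx2 and Pou3f1, of the same list, had mean levels of 1.65 and 0.35 in Diff and 1.05 and -0.26 in ESC. In NACL they had 1.5 and -0.21, against 1.12 and -0.56 in 2iL. Tcf15, a helix-loop-helix factor of cells primed to differentiate, had levels of 1.34, 1.54 and 2.19 in Diff, against -0.44, -0.05 and -0.21 in ESC. It stood at 4.01, 4.86, 5.19 and 4.82 in NACL, against 1.32, 2.21 and 2.02 in 2iL. Tcf15 rose by 1.92 ± 0.57 in Diff (adjusted p = 0.0083; 0.074 within the first scan day) and by 2.87 ± 0.53 in NACL (adjusted p = 0.0012). Fgf5, a ligand of primed epiblast, was well above background on 2 of 3 Diff and 4 of 4 NACL arrays but on 0 ESC and 0 2iL arrays, and was at least 3.15-fold higher in Diff (adjusted p = 0.0004) and 2.76-fold higher in NACL (adjusted p = 0.0073; 0.076 with cell line as a block and 0.062 without 2iL 3). Sox4, a SOX factor of progenitor cells, rose by 1.22 ± 0.41 in Diff (adjusted p = 0.02; 0.06 without ESC 3 and 0.072 without Diff 3) and by 1.51 ± 0.39 in NACL (adjusted p = 0.015; 0.092 without 2iL 1 and 0.054 without NACL 1). Of 13 core pluripotency genes, 2 rose and 5 fell in Diff and 3 rose in NACL. The 2 shared ones, both higher, were Lin28a and Utf1. Lin28a, an RNA-binding protein that blocks let-7 maturation, rose by 3.61 ± 0.29 in Diff and by 1.95 ± 0.27 in NACL, a difference of 1.65 ± 0.39 (adjusted p = 0.0024). The Diff rise of Utf1 was 1.34 (adjusted p = 0.038) and was not called within the first scan day (adjusted p = 0.41). Id1, a target of BMP signalling that inhibits basic helix-loop-helix factors, rose by 3.34 ± 0.60 in Diff and by 2.39 ± 0.57 in NACL (adjusted p = 0.0085; 0.091 without 2iL 1). Tdg, a glycosylase of active DNA demethylation, rose by 0.60 ± 0.18 in Diff (adjusted p = 0.01; 0.07 without Diff 3) and by 0.85 ± 0.17 in NACL (adjusted p = 0.0025), and Bst2, an interferon-induced membrane protein, by 2.63 ± 0.40 and 1.57 ± 0.37.

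The rule named 6 shared falls, Calcoco2, Bhmt, Spic, Ifi27, Vwf and Aurkc. Calcoco2, known in human cells as the autophagy receptor NDP52, had levels of -1.52, -0.68 and 0.39 in Diff, against 3.75, 3.36 and 4.43 in ESC. Its levels were -1.91, -1.11, -2.10 and 0.32 in NACL, against 3.31, 5.6 and 3.16 in 2iL. It fell by 4.45 ± 0.59 in Diff and by 5.22 ± 0.56 in NACL, and the 95% interval of the difference was -0.91 to 2.46. Ifi27, an interferon-inducible gene, had levels of -2.90, -3.13 and -3.73 in Diff, against 0.80, 0.81 and 0.35 in ESC. It stood at -2.83, -2.98, -1.87 and -2.31 in NACL, against 1.81, 1.02 and 1.04 in 2iL. The fall was 3.91 ± 0.45 in Diff and 3.79 ± 0.42 in NACL, with an interval of the difference of -1.38 to 1.14.

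Bhmt, which remethylates homocysteine with betaine, fell by 4.20 ± 0.73 in Diff and by 4.96 ± 0.69 in NACL. Spic, an ETS family factor known from macrophages of the spleen, fell by 6.45 ± 0.76 in Diff and by 4.07 ± 0.71 in NACL. Vwf, the von Willebrand factor of blood clotting, fell by 3.40 ± 0.45 and 3.04 ± 0.42, and Aurkc, an aurora kinase of meiosis, fell by 3.58 ± 0.40 and 2.94 ± 0.37. The difference was not called for any of these 6 genes (adjusted p from 0.089 to 0.91), which does not show equal falls: for Spic its unadjusted 95% interval was -4.53 to -0.23. Among list members, Gsc, a homeobox gene of the organiser, fell by 5.05 ± 0.52 in Diff, with 1 of 3 Diff arrays well above background, and by 4.09 ± 0.48 in NACL, with 2 of 4. Of 11 mesendoderm and definitive endoderm genes tested, 2 rose and 2 fell in Diff and 1 rose and 1 fell in NACL. Eomes, of this list, was a shared rise, with mean levels of 0.95 in Diff, -1.08 in ESC, 1.01 in NACL and -0.24 in 2iL. Its NACL call (adjusted p = 0.021) was lost without 2iL 1 (adjusted p = 0.21). Dazl, a germ cell RNA-binding protein, fell by 2.39 ± 0.47 in Diff and by 1.64 ± 0.44 in NACL (adjusted p = 0.02; 0.11 without 2iL 1, 0.11 without 2iL 2 and 0.06 without NACL 3). Oas1a, an interferon-induced enzyme, fell by 6.63 ± 0.71 in Diff and by 2.50 ± 0.67 in NACL (adjusted p = 0.019; 0.065 without 2iL 2, 0.054 without 2iL 3 and 0.073 without NACL 1). Of 8 interferon-induced genes tested, 1 rose and 3 fell in Diff, and 1 rose and 1 fell in NACL, where 42.4% of all genes were called in Diff (18.9% lower) and 8.25% in NACL (4.13% lower); the Diff count lies near that share.

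**Figure D3:**
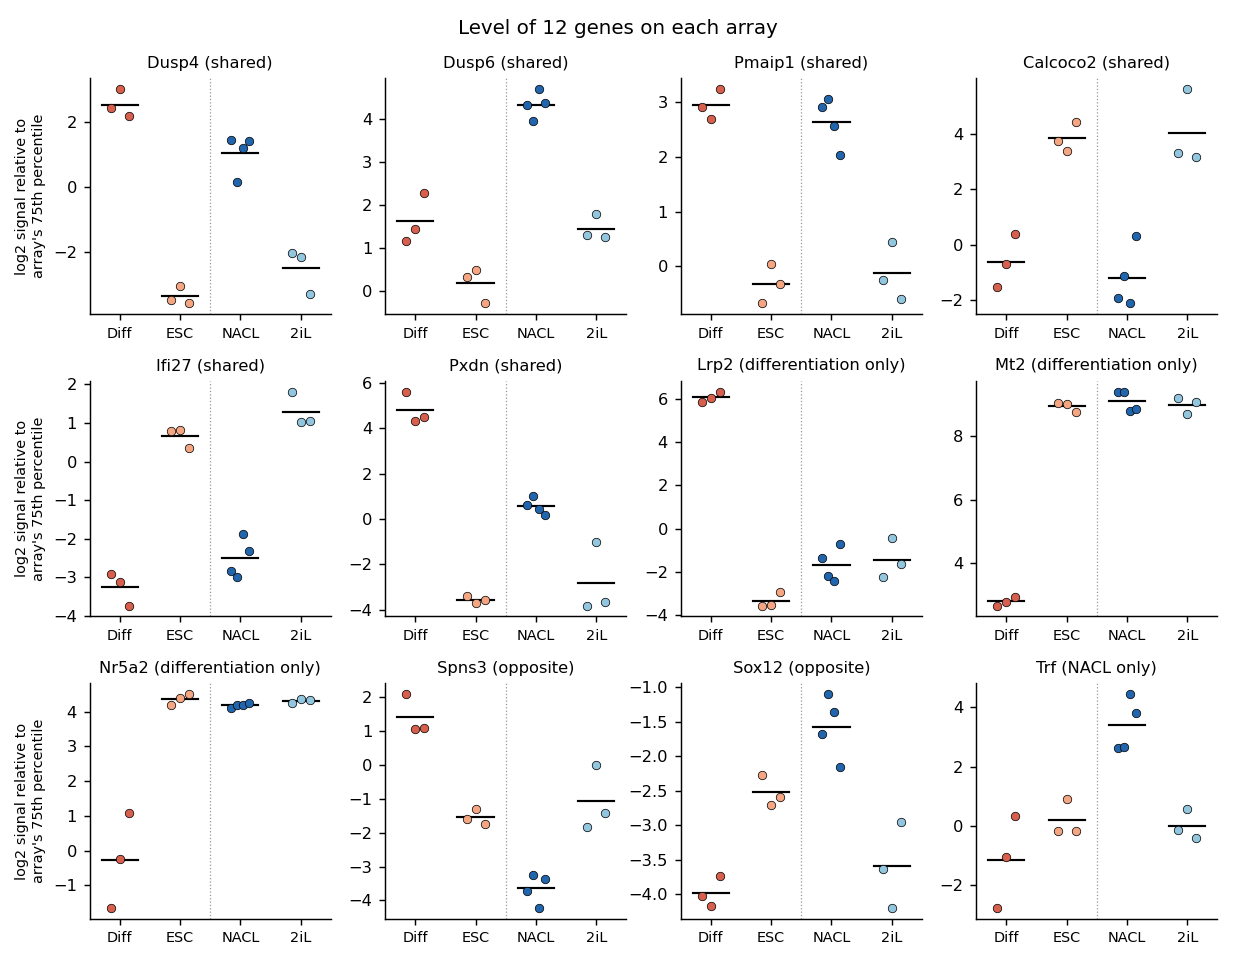
Log2 signal relative to the array's 75th percentile of 12 genes on each array, with groups Diff, ESC, NACL and 2iL along the x axis, a point per array and a bar for the group mean. Dusp4, Dusp6, Pmaip1 and Pxdn are higher and Calcoco2 and Ifi27 lower in Diff and in NACL than in their 2i arrays; Lrp2, Mt2 and Nr5a2 were called between Diff and ESC but not between NACL and 2iL, Spns3 and Sox12 move opposite ways and Trf is higher in NACL.

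The endoderm programme was large in Diff, and some of its genes also rose, at low level, in NACL, while others fell there. Of 8 primitive endoderm factors tested, 8 rose in Diff and 3, Gata6, Sox7 and Sox17, also rose in NACL, and the difference of differences was called for all 8. The medians were 9.42 in Diff and 1.07 in NACL. Gata6, the factor that specifies primitive endoderm, had levels of 5.09, 4.56 and 5.16 in Diff, against -5.49, -5.17 and -4.34 in ESC. In NACL its levels were -3.43, -2.83, -2.66 and -0.26, against -6.50, -3.60 and -5.25 in 2iL. The highest NACL array, NACL 4 of the line E14-NanogGFP, lay well below the lowest Diff array, which is of the other array set and another line. The NACL rise of Gata6 was 2.82 ± 0.57 (adjusted p = 0.0025; 0.051 in a fit of the 13 arrays alone), with 1 of 3 2iL arrays well above background. Sox7, an SRY-related factor of the same lineage, was higher in Diff at least 220-fold and in NACL at least 4.57-fold (adjusted p = 0.00051), where 3 of 4 arrays were well above background. The NACL rise of Sox7 was not called with replicate number as a block (adjusted p = 0.054). Sox17, its relative, was at least 649-fold higher in Diff and rose by 1.53 ± 0.41 in NACL (adjusted p = 0.022; 0.1 with cell line as a block, 0.091 without 2iL 1 and 0.078 without 2iL 3). Gata4, a partner of Gata6, rose by 6.61 ± 0.41 in Diff and changed by 0.52 ± 0.38 in NACL, a difference of 6.09 ± 0.56 (adjusted p = 3.6e-08). Hnf4a, a nuclear receptor of visceral endoderm, rose by 6.06 ± 0.59 in Diff and changed by 0.55 ± 0.55 in NACL, a difference of 5.51 ± 0.81. Foxa2 rose by 9.87 ± 0.79 in Diff, with 1 of 3 ESC arrays above background, and was not called in NACL (adjusted p = 0.19). Pdgfra, a receptor of primitive endoderm cells, was at least 360-fold higher in Diff and not called in NACL (adjusted p = 0.6). With normexp background correction, the NACL rises of Gata6 and Sox17 were not called (adjusted p = 0.086 and 0.11). Within the slide that holds HVMC and E14, that of Sox17 was not called (adjusted p = 0.12).

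Uptake genes split into shared, opposite and differentiation only members. Of 11 endocytic uptake genes tested, 9 rose and 1 fell in Diff, and 4 rose and 2 fell in NACL. Amn, which anchors cubilin in the membrane, had levels of 6.83, 6.85 and 6.67 in Diff, against -3.61, -3.27 and -1.64 in ESC. It had -0.69, -0.91, -0.82 and 0.36 in NACL, against -2.56, -2.26 and -1.87 in 2iL, so that every NACL array lay above every 2iL array. All lay far below Diff, which is of the other array set and another line. The rise of 1.71 ± 0.38 in NACL (adjusted p = 0.005) was smaller by 7.91 ± 0.55 than that in Diff (adjusted p = 1.2e-09). The NACL rise of Amn was not called with replicate number as a block (adjusted p = 0.11). Cubn, the receptor cubilin itself, was at least 3360-fold higher in Diff and at least 4.01-fold higher in NACL (adjusted p = 0.0015), with 3 of 4 NACL arrays well above background. NACL 4 was again the highest, with a level of 0.32, against -4.36, -3.98 and -2.69 on the other NACL arrays; with normexp background correction the NACL rise was not called (adjusted p = 0.08). Ctsz, a lysosomal protease, rose by 3.18 ± 0.18 in Diff and by 1.23 ± 0.17 in NACL. Ctsh, of the same family, rose by 9.58 ± 0.54 in Diff and by 1.61 ± 0.50 in NACL (adjusted p = 0.048). Its NACL call was lost with cell line as a block (adjusted p = 0.15) and within the slide that holds HVMC and E14 (adjusted p = 0.31). It was also lost without ESC 1, ESC 3, any Diff array, 2iL 1, 2iL 3, NACL 1, NACL 2 or NACL 4 (adjusted p up to 0.17). Lrp2, the receptor megalin, had levels of 5.84, 6.03 and 6.32 in Diff, against -3.56, -3.52 and -2.94 in ESC, and -1.37, -2.20, -2.44 and -0.73 in NACL, against -2.23, -0.43 and -1.65 in 2iL. Its NACL and 2iL arrays overlapped, and the difference of differences was 9.65 ± 0.66 (adjusted p = 9.9e-10). Dab2, the adaptor of megalin, was at least 1550-fold higher in Diff and not called in NACL (adjusted p = 0.84).

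Lgmn and Lrpap1 went opposite ways. Lgmn, a lysosomal endopeptidase, had levels of 7.79, 7.26 and 7.27 in Diff, against 4.53, 4.69 and 4.50 in ESC, and 2.88, 2.99, 2.95 and 3.25 in NACL, against 3.92, 4.34 and 4.03 in 2iL. Lrpap1, the chaperone of megalin, rose by 3.76 ± 0.28 in Diff and fell by 1.01 ± 0.26 in NACL (adjusted p = 0.017; 0.088 without 2iL 2 and 0.051 without 2iL 3). Tfrc, the transferrin receptor, fell by 2.85 ± 0.48 in Diff and changed by 0.23 ± 0.45 in NACL.

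Basement membrane genes were mostly higher in Diff only. Of 16 tested, 12 rose and 1 fell in Diff, and 2 rose and 1 fell in NACL, with medians of 2.67 and 0.14. Col4a1 and Col4a2 encode both chains of the collagen IV of basement membranes and are transcribed from neighbouring starts in opposite directions. Their promoter windows, of 250 bases before and 50 bases after each start, overlap by 78 bases, shown in capitals below; they are printed because the genes shared a start region but fell into different classes. Sequences are RefSeq promoters of assembly GRCm38.p6, given 5′ to 3′ on the strand of the gene.
Col4a1, chr8:11312777-11313076, minus strand: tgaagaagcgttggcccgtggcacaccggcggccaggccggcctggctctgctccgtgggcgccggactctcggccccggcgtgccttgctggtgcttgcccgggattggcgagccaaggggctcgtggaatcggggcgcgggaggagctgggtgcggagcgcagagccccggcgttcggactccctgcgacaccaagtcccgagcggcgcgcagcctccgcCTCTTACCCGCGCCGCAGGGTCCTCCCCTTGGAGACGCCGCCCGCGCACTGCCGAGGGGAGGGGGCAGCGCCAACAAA
Col4a2, chr8:11312555-11312854, plus strand: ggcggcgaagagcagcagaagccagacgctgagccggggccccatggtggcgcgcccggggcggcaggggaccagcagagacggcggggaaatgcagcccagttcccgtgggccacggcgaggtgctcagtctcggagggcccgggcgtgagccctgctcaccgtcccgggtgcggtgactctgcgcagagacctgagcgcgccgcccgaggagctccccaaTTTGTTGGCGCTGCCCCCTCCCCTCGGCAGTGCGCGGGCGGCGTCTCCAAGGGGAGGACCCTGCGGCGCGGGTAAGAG

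Col4a2 had levels of 8.08, 7.03 and 7.08 in Diff, against -3.41, -3.53 and -4.28 in ESC. Its levels in NACL were -2.40, -1.11, -1.52 and 1.07, against -2.80, -1.30 and -2.39 in 2iL, and these groups overlapped. The NACL change of 1.17 ± 0.51 was not called (adjusted p = 0.18), and the difference of differences was 9.96 ± 0.75 (adjusted p = 2.7e-09). Col4a1 had levels of 8.48, 7.46 and 7.51 in Diff, against -5.85, -5.24 and -4.47 in ESC, and -2.80, -0.83, -1.35 and 1.41 in NACL, against -4.46, -0.86 and -4.87 in 2iL. Its NACL rise of 2.51 ± 0.75 was called (adjusted p = 0.038), with overlapping arrays and 2 of 3 2iL arrays well above background, and was lost with cell line as a block (adjusted p = 0.15) or without 2iL 1, 2iL 3, NACL 2, NACL 3 or NACL 4 (adjusted p = 0.22, 0.24, 0.08, 0.052 and 0.11). The class of Col4a1 thus changed with single arrays. Lamb1, a laminin chain, rose by 7.05 ± 0.43 in Diff and by 1.77 ± 0.40 in NACL (adjusted p = 0.0057). That NACL call was lost with cell line as a block (adjusted p = 0.06) and without 2iL 3 (adjusted p = 0.066). Within the slide that holds HVMC and E14, the NACL rises of Col4a1 and Lamb1 were not called (adjusted p = 0.46 and 0.13). Lama1 and Lamc1, the chains that join Lamb1 in laminin, rose by 3.30 ± 0.36 and 2.67 ± 0.29 in Diff and changed by -0.67 ± 0.34 and -0.58 ± 0.27 in NACL, with called differences of 3.97 ± 0.49 and 3.25 ± 0.40. Serpinh1, the collagen chaperone, rose by 6.25 ± 0.43 in Diff and Plod2, which hydroxylates collagen lysines, by 4.10 ± 0.30, and neither was called in NACL (adjusted p = 0.21 and 0.77). Fn1, fibronectin, fell by 3.43 ± 0.44 in Diff and changed by 0.12 ± 0.42 in NACL.

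Among 15 visceral endoderm and lipid transport genes, 11 rose in Diff, and 2 rose and 2 fell in NACL. Mttp, which loads lipid onto apolipoprotein B, rose by 7.63 ± 0.32 in Diff, with 1 of 3 ESC arrays above background, and by 1.93 ± 0.30 in NACL (adjusted p = 0.0002). Apom, an apolipoprotein, rose by 1.51 ± 0.34 in Diff and fell by 2.38 ± 0.32 in NACL, a difference of 3.89 ± 0.47 (adjusted p = 1.5e-06). Cited1, a transcriptional coactivator, rose by 4.34 ± 0.68 in Diff and fell by 2.25 ± 0.64 in NACL (adjusted p = 0.028; 0.058 with cell line as a block, 0.066 without 2iL 1, 0.12 without 2iL 3, and 0.091, 0.059 and 0.084 without NACL 1, NACL 2 and NACL 3). Ttr, the carrier of thyroid hormone and retinol, was at least 85.8-fold higher in Diff and not called in NACL (adjusted p = 0.6). Of 7 parietal endoderm genes, 5 rose and 1 fell in Diff, and 1, Pth1r, rose and 2 fell in NACL. The medians of that list were 3.45 in Diff and -1.41 in NACL. Pth1r, a receptor of parietal endoderm, rose by 11 ± 0.52 in Diff and by 3.11 ± 0.48 in NACL, with 1 of 3 ESC and 1 of 3 2iL arrays well above background. With normexp background correction the NACL rise of Pth1r was not called (adjusted p = 0.1).

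The largest differences of differences among genes measured on all 13 arrays belonged, beside Col4a2 and Lrp2, to Srgn, Clic6 and Aqp8. Srgn, the proteoglycan core serglycin, had levels of 8.55, 8.23 and 8.25 in Diff, against -0.79, -0.55 and -0.60 in ESC, and -1.36, -0.87, -0.31 and 1.06 in NACL, against -0.33, -1.32 and -0.21 in 2iL. The difference of differences was 8.74 ± 0.64 (adjusted p = 2.2e-09). Aqp8, a water channel, rose by 8.26 ± 0.56 in Diff and changed by -0.23 ± 0.52 in NACL. Clic6, an intracellular chloride channel, rose by 6.98 ± 0.59 in Diff and changed by -1.71 ± 0.55 in NACL (adjusted p = 0.055). Epithelial genes moved the same way: of 10 tested, 8 rose in Diff and 1 rose in NACL, with medians of 4.30 and 0.31. Epcam, an epithelial adhesion molecule, rose by 5.0 ± 0.30 in Diff and changed by 0.28 ± 0.28 in NACL, and Krt18, a keratin of simple epithelia, rose by 6.50 ± 0.49 and changed by 0.63 ± 0.46. Of 8 mesenchymal genes, 2 rose and 3 fell in Diff and 1 rose in NACL, where 42.4% of all genes were called in Diff and 8.25% in NACL. Snai1, a repressor of epithelial cadherin, rose by 4.15 ± 0.51 in Diff and changed by -1.41 ± 0.48 in NACL (adjusted p = 0.071), a difference of 5.56 ± 0.70 (adjusted p = 2.5e-06). Zeb1, another such repressor, fell by 4.51 ± 0.60 in Diff, with 2 of 3 Diff arrays well above background, and changed by -0.05 ± 0.56 in NACL.

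The naive network fell in Diff, while in NACL 1 of its members was called. Of 15 naive pluripotency genes, 1 rose and 8 fell in Diff, and 0 rose and 1, Dppa3, fell in NACL, and 7 were lower in differentiation only. The medians were -2.16 in Diff and -0.13 in NACL. Nr5a2, a nuclear receptor that can activate Pou5f1, had levels of -1.66, -0.24 and 1.08 in Diff, against 4.20, 4.39 and 4.51 in ESC. Its levels were 4.11, 4.19, 4.19 and 4.24 in NACL, against 4.24, 4.38 and 4.33 in 2iL. The 95% interval of its NACL change was -1.17 to 0.91, and the difference of differences was -4.51 ± 0.73 (adjusted p = 6.2e-05). Nanog fell by 4.65 ± 0.77 in Diff and changed by -0.59 ± 0.72 in NACL, Klf2 fell by 3.48 ± 0.68 and changed by 0.07 ± 0.63, Esrrb fell by 3.19 ± 0.57 and changed by 0.21 ± 0.54, and all 3 are transcription factors of the naive state with a called difference (adjusted p = 0.0051, 0.0051 and 0.002). Tfcp2l1, a target of LIF and STAT3, fell by 3.08 ± 0.45 in Diff and changed by -0.76 ± 0.42 in NACL. Sox2, of the core network, fell by 3.17 ± 0.74 in Diff and changed by 0.20 ± 0.70 in NACL (adjusted p of the difference = 0.014; 0.061 without Diff 1). Dppa3, a maternal factor also known as Stella, fell by 3.72 ± 0.91 in NACL (adjusted p = 0.011; 0.068 without 2iL 1 and 0.052 without 2iL 3) and changed by -2.16 ± 0.97 in Diff (adjusted p = 0.077).

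Single Diff arrays differed in these and other lists. Diff 1 was the lowest and Diff 3 the highest Diff array for 10 of 15 naive pluripotency genes, 8 of 13 core pluripotency genes, 7 of 11 primed epiblast genes, 13 of 17 cell cycle genes, 10 of 12 Activin and Nodal genes, 11 of 19 ERK targets and feedback genes, 6 of 10 DNA methylation genes and 5 of 8 mesenchymal genes, against 23.8% of all genes. The reverse order, Diff 1 highest and Diff 3 lowest, held for 20.8% of all genes. It held for 6 of 10 epithelial, 5 of 9 trophoblast, 6 of 16 glycolysis and 3 of 6 metallothionein and zinc genes. Nanog had levels of -2.40, -0.29 and 1.2 in Diff and Esrrb had 2.30, 3.86 and 5.31 in Diff. Diff 1 and Diff 2 were read on the first scan day and Diff 3 on the second, and the part of the scan day in this was not tested.

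Some metal-binding, DNA methylation and replication genes were lower in differentiation only, and other members of the first 2 lists were higher in Diff. Of 6 metallothionein and zinc genes, 2 rose and 3 fell in Diff and 1 rose in NACL, where 42.4% of all genes were called in Diff and 8.25% in NACL. Mt2, a metallothionein, had levels of 2.65, 2.77 and 2.93 in Diff, against 9.05, 9.02 and 8.79 in ESC, and 9.41, 9.42, 8.82 and 8.88 in NACL, against 9.21, 8.71 and 9.09 in 2iL. The difference of differences was -6.31 ± 0.68 (adjusted p = 3.4e-07). Mt1, of the same family, fell by 4.46 ± 0.53 and Slc30a1, which exports zinc, fell by 2.53 ± 0.58 in Diff, and they changed by 0.02 ± 0.50 and 0.32 ± 0.54 in NACL. Slc39a8, which imports zinc and manganese, was shared: it rose by 7.70 ± 0.54 in Diff, with 1 of 3 ESC arrays above background, and was at least 1.76-fold higher in NACL (adjusted p = 0.00073), with 2 of 4 NACL and 0 of 3 2iL arrays well above background; with normexp background correction it was not called in NACL (adjusted p = 0.17).

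Of 10 DNA methylation genes, 4 rose and 5 fell in Diff and 1, Tdg, rose in NACL. Dnmt3b, a de novo methyltransferase, rose by 3.14 ± 0.38 in Diff and changed by 0.25 ± 0.35 in NACL, a difference of 2.89 ± 0.52 (adjusted p = 0.00017). Dnmt3l, its cofactor, rose by 4.37 ± 0.60 in Diff and changed by 1.68 ± 0.56 in NACL (adjusted p = 0.066), and its difference (adjusted p = 0.015) was not called without 2iL 2 (adjusted p = 0.058). Tet1 and Tet2, which oxidise methylcytosine, fell by 2.19 ± 0.39 and 1.84 ± 0.32 in Diff and changed by 0.88 ± 0.36 and 0.17 ± 0.30 in NACL, and Uhrf1, which guides maintenance methylation, fell by 2.43 ± 0.28 and changed by -0.51 ± 0.26. Of 17 cell cycle genes tested, 1 rose and 7 fell in Diff and 0 were called in NACL; over all genes 42.4% were called in Diff, with 18.9% lower, so the total called is near that of all genes. Mcm5 and Mcm6, subunits of the replication helicase, fell by 1.2 ± 0.24 and 0.98 ± 0.16 in Diff and changed by 0.13 ± 0.22 and -0.01 ± 0.15 in NACL. With arrays centred on their median, neither was called in Diff (adjusted p = 0.078 and 0.14).

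Pltp, a phospholipid transfer protein, fell by 4.13 ± 0.42 in Diff and changed by 1.11 ± 0.40 in NACL (adjusted p = 0.091). Rapgef3, an exchange factor activated by cyclic AMP, fell by 3.06 ± 0.65 in Diff and changed by 1.87 ± 0.61 in NACL (adjusted p = 0.06). Cox6a2, a subunit of cytochrome oxidase, fell by 3.33 ± 0.84 in Diff and changed by 2.06 ± 0.79 in NACL (adjusted p = 0.12), where the arrays ranged from -2.98 to 2.44. With replicate number as a block its fall in Diff was not called (adjusted p = 0.053).

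Genes with opposite responses included Spns3, of the spinster transporter family. It had levels of 2.10, 1.06 and 1.09 in Diff, against -1.59, -1.31 and -1.75 in ESC, and -3.72, -3.25, -4.23 and -3.38 in NACL, against -1.83, 0.01 and -1.41 in 2iL. The arrays did not overlap in either change, and Spns3 rose by 2.97 ± 0.46 in Diff (adjusted p = 1.5e-05) and fell by 2.57 ± 0.43 in NACL (adjusted p = 0.00047). Pcdh19, a protocadherin on the X chromosome, rose by 3.00 ± 0.55 in Diff and fell by 2.26 ± 0.51 in NACL (adjusted p = 0.0064; 0.059 with replicate number as a block). Nckap1l, a WAVE complex subunit of blood cells, rose by 2.79 ± 0.56 in Diff and fell by 2.31 ± 0.53 in NACL (adjusted p = 0.0064). That fall was not called without 2iL 3 (adjusted p = 0.052) or with replicate number as a block (adjusted p = 0.12). Eprn, the long noncoding RNA ephemeron, rose by 2.94 ± 0.70 in Diff and fell by 2.38 ± 0.66 in NACL (adjusted p = 0.024; 0.096 without 2iL 2, 0.055 without 2iL 3, 0.079 without NACL 1 and 0.094 without NACL 2).

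In the other direction, Sox12, a SOX factor of the Sox4 group, fell by 1.45 ± 0.31 in Diff and rose by 2.02 ± 0.29 in NACL (adjusted p = 9.6e-05). Its Diff change was -0.36 with normexp background correction and -0.4 in the deposited series matrix, and was called in neither (adjusted p = 0.14 and 0.11). Slc25a27, a mitochondrial carrier, fell by 3.19 ± 0.53 in Diff and rose by 1.66 ± 0.49 in NACL (adjusted p = 0.036; 0.079 without 2iL 2, 0.15 without 2iL 3, and 0.095, 0.061 and 0.063 without NACL 1, NACL 2 and NACL 4). Ppm1j, a PP2C type phosphatase, fell by 1.84 ± 0.56 in Diff (adjusted p = 0.011; 0.053 without Diff 2) and rose by 1.88 ± 0.53 in NACL (adjusted p = 0.027; 0.11 without 2iL 2, 0.06 without 2iL 3, 0.052 without NACL 2 and 0.095 without NACL 3). Ppp1r9a, the actin-binding protein neurabin, fell by 1.42 ± 0.49 in Diff (adjusted p = 0.023; up to 0.13 without ESC 1, ESC 2 or Diff 1). Its rise of 1.47 ± 0.46 in NACL lay at the threshold, with an adjusted p from 0.05 to 0.19 without any one array other than Diff 1 or 2iL 2, and of 0.051 with cell line as a block.

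Genes changed in NACL only were few. Trf, transferrin, had levels of 2.64, 2.67, 4.45 and 3.81 in NACL, against -0.15, 0.57 and -0.41 in 2iL, and -2.78, -1.06 and 0.33 in Diff, against -0.16, 0.89 and -0.17 in ESC. It rose by 3.39 ± 0.61 in NACL (adjusted p = 0.00097), and its difference of differences was -4.75 ± 0.90 (adjusted p = 0.00031). Aspg, an asparaginase, and Pdyn, the precursor of dynorphin peptides, rose by 2.33 ± 0.44 and 2.43 ± 0.43 in NACL and changed by -0.74 ± 0.47 and -0.61 ± 0.46 in Diff. With replicate number as a block, the NACL rises of Trf and Pdyn were not called (adjusted p = 0.051 and 0.078). Ly6c1, a membrane antigen, had levels of -3.35, -0.42, -1.62 and 0.10 in NACL, against 4.52, 4.21 and 4.76 in 2iL, and 3.20, 2.54 and 2.32 in Diff, against 4.77, 4.28 and 4.13 in ESC. Its Diff change of -1.71 ± 0.71 was not called (adjusted p = 0.056), although the Diff and ESC arrays did not overlap. Aass, an enzyme of lysine breakdown, fell by 2.76 ± 0.48 in NACL and changed by 0.78 ± 0.51 in Diff. Cryge, a lens crystallin, fell by 3.21 ± 0.86 in NACL (adjusted p = 0.019; 0.057 without 2iL 2, 0.069 without 2iL 3 and 0.06 without NACL 3).

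The signalling lists other than ERK showed few shared changes, but few of all genes were shared (2.03% higher and 1.87% lower). Of 12 Activin and Nodal genes, 3 rose and 1 fell in Diff and 2 rose and 1 fell in NACL, and 0 were shared. Over all genes, 42.4% were called in Diff and 8.25% in NACL. With 12 genes, the shared count of this list lies near the share over all genes. Pmepa1, a feedback inhibitor of this pathway, rose by 3.08 ± 0.31 in Diff and changed by 0.61 ± 0.29 in NACL, a difference of 2.48 ± 0.42 (adjusted p = 9.5e-05). Inhbb, an Activin subunit, rose by 2.98 ± 0.69 in NACL (adjusted p = 0.0072; 0.083 without 2iL 1) and changed by -0.52 ± 0.74 in Diff. Of 12 Wnt targets, 2 rose and 4 fell in Diff and 0 rose and 3 fell in NACL, against 23.5% higher and 18.9% lower in Diff and 4.12% higher and 4.13% lower in NACL over all genes. Both cultures and both of their 2i controls contained CHIRON or 2i, which includes it. Dkk1, a secreted Wnt inhibitor, rose by 8.55 ± 0.78 in Diff and changed by -1.94 ± 0.73 in NACL, with 2 of 4 NACL and 2 of 3 2iL arrays well above background. Cdx1, a homeobox target of Wnt, fell by 4.77 ± 0.56 in Diff and changed by -0.07 ± 0.52 in NACL. Rnf43, which removes Wnt receptors, rose by 2.31 ± 0.40 in Diff and fell by 1.60 ± 0.37 in NACL (adjusted p = 0.0073; 0.07 with cell line as a block and 0.061 without 2iL 1). Of 11 LIF and STAT3 genes, 1 rose and 4 fell in Diff and 1 rose in NACL, near the 42.4% and 8.25% called over all genes. Pim1, a kinase induced by STAT3, fell by 4.40 ± 0.43 in Diff and changed by -0.31 ± 0.40 in NACL. Of 8 BMP response genes, 3 rose and 3 fell in Diff and 1 rose and 1 fell in NACL, beside the same 42.4% and 8.25%. Id2 rose by 4.13 ± 0.47 in Diff and changed by 0.05 ± 0.44 in NACL, unlike its relative Id1, which rose in both.

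**Figure D4:**
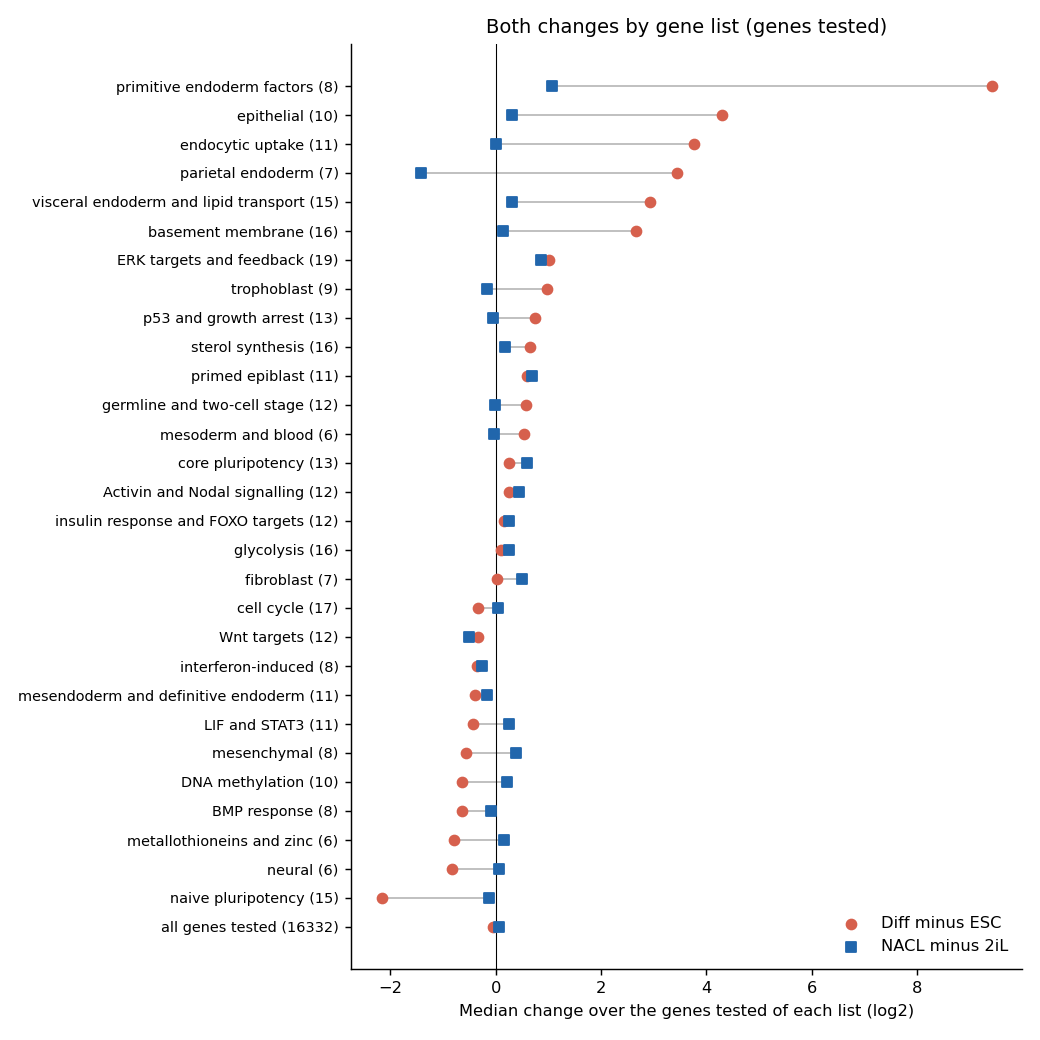
Median log2 change over the genes tested of each of 29 gene lists and of all genes, for Diff minus ESC (circles) and NACL minus 2iL (squares), with the number of genes tested in brackets. The lists of primitive endoderm, epithelial, uptake, parietal and visceral endoderm and basement membrane genes lie far right in Diff, the naive list lies at -2.16 in Diff and -0.13 in NACL, and both medians of the ERK list lie near 1.

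The counts of all lists, above and below, are to be read against the 42.4% of all genes called in Diff and the 8.25% called in NACL. Of 12 germline and cleavage-stage genes, 5 rose and 2 fell in Diff and 2 rose and 1 fell in NACL. Zscan4f, of a gene family of cleavage embryos whose close copies can share probes, had levels of 3.20, 5.83 and 5.51 in Diff, against -3.91, -0.78 and -0.03 in ESC, and 3.20, 3.79, 3.31 and 3.46 in NACL, against 4.84, 6.26 and -0.27 in 2iL. The wide spread in 2iL leaves an interval of its NACL change of -2.68 to 2.34. Of 13 p53 and growth arrest genes, 6 rose in Diff and 1 rose and 1 fell in NACL, and Pmaip1 was the shared one. Of 16 sterol synthesis genes, 4 rose in Diff and 0 were called in NACL, and of 16 glycolysis genes 1 rose and 1 fell in Diff and 1 rose in NACL. Of 7 fibroblast genes, 1 fell in Diff and 0 were called in NACL. Of 9 trophoblast genes, 3 rose and 2 fell in Diff and 0 were called in NACL, and Tfap2c, a factor of trophoblast and germ cells, fell by 3.85 ± 0.60 in Diff and changed by -0.04 ± 0.56 in NACL.

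Promoters of the shared genes were searched for 3 short motifs on both strands, the ETS core CCGGAAG, the GATA core AGATAA and the TCF core ATCAAAG. RefSeq windows of 300 bases were found for 12938 of the 16332 genes, by symbol. The ETS core was in 10% of windows of shared higher genes, 8.31% of shared lower genes, 15.6% of higher and 12.6% of lower differentiation only genes and 14.2% of the windows of all genes tested. The GATA core was in 5.45% of windows of shared higher genes and 7.86% of those of higher differentiation only genes, against 7.73% of all genes tested. The TCF core was in 1.21% of windows of shared higher genes and 3.99% of shared lower genes, against 2.79%. No test was made, and a match is a description of these letters in these windows. Windows of 2 shared genes from the lists above are printed. That of Dusp6 held none of the 3 motifs and is in lower case throughout. In that of Cubn, capitals mark the TCF core at 37 bases before the start.
Dusp6, chr10:99262981-99263280, plus strand: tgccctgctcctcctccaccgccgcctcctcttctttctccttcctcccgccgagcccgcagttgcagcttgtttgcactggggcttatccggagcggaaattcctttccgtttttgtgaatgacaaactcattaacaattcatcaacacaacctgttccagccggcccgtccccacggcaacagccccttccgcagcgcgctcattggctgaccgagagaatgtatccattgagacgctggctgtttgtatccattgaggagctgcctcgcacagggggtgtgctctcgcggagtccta
Cubn, chr2:13491827-13492126, minus strand: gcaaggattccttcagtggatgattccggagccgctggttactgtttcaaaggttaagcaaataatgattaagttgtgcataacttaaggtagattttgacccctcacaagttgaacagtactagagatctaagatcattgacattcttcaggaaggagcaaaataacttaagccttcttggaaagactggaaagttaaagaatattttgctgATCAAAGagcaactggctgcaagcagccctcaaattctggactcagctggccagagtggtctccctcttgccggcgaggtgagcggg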

How the data were processed

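Per the labels' protocols, cells were lysed on the plate and total RNA was hybridised to single-colour Agilent arrays. Per the file headers, the deposited intensity of each spot was background-corrected by Agilent Feature Extraction (11.0.1.1 for Diff and ESC, 12.0.1.1 for NACL and 2iL; 9.1 in the submitters' processing notes). The authors also deposited a series matrix, read as log2 values, of unstated scale and base, used as an alternative only. On the 13 arrays its column medians were 5.94 to 5.949, and its correlation with the scanner values was 0.909 to 0.936.

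From the processed signal, irregular spots were dropped (142 to 243 of 59305 per array; 0 were saturated), spots of a probe averaged on the log2 scale and each array's 75th percentile subtracted (137 to 269 intensity units). Precision is limited by the number of arrays. RefSeq accessions (GRCm38.p6) gave 27636 of 55681 probes a symbol, while the headers name mm9, so no coordinates of probes are given; the probe with the highest mean stood for its gene. A gene was tested if every array of 1 or more of the 9 groups had its probe well above background, 16332 in all. limma 3.58.1 (lmFit, eBayes; R 4.3.3) fitted 9 group means to all 29 arrays, so 3 contrasts shared one estimate of the spread. Adjusted p-values follow Benjamini and Hochberg over all genes of a contrast. No arrays are common to both changes. Intervals are at 95%. Where no array of a group had a probe well above background, a bound is given as "at least N-fold": the bright group's mean over the dim group's, in which no array counts for less than its dimmest probe called well above background. Where some arrays of a group were above background, their number is given and the fitted change is less certain.

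Named by rule were, among genes well above background on all 13 arrays and without overlap of arrays: the 6 shared genes in each direction with the largest smaller one of both changes, the 5 differentiation only and 3 NACL only genes in each direction with the largest difference of differences, and the 4 opposite genes in each direction. Members of 29 gene lists were named for their role. Members and lists were chosen with earlier results of these data known. Same-numbered arrays of Diff and ESC deviated together only weakly (correlations 0.085, 0.02 and 0.075), which does not settle whether they are paired. Diff 2 and ESC 2 lay on the same slide, and Diff 3 and ESC 3 were both read on the second scan day. The main fit did not pair them. NACL and 2iL arrays of the same cell line are paired by that line (correlations 0.16, 0.051, -0.044 and 0.047), and the value with cell line as a block is given where it ends a call. Replicate number as a block ended 27 of 287 calls of named genes, not all of which are given. The fit was tested on simulated data. Python 3.11.15, numpy 2.4.6, pandas 2.3.3 and matplotlib 3.10.9 were used for reading and plots. A few results on single genes are not reported here.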

Additional observations from a re-analysis of the deposited data

Results flagged for a closer look

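Both changes differed from each other, by the test of the difference itself, for 4942 genes. Among genes named by rule, the difference of differences (log2) of those higher in differentiation only was 9.96 for Col4a2, 9.65 for Lrp2, 8.74 for Srgn, 8.69 for Clic6 and 8.49 for Aqp8. Of those lower in differentiation only it was -6.31 for Mt2, -5.39 for Cox6a2, -5.25 for Pltp and -4.93 for Rapgef3. Genes with opposite responses gave 5.54 for Spns3, 5.32 for Eprn, 5.26 for Pcdh19 and 5.10 for Nckap1l, and -4.86 for Slc25a27, -3.71 for Ppm1j, -3.47 for Sox12 and -2.89 for Ppp1r9a. Genes of NACL only gave 4.94 for Cryge, 4.11 for Ly6c1 and 3.53 for Aass, and -4.75 for Trf, -3.07 for Aspg and -3.05 for Pdyn. Among shared genes the difference was called for Pxdn (4.97), Ap1s3 (2.50) and Dusp4 (2.36).

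One NACL array stood far from the other 3 for 5 of 128 genes checked, where chance gives about 1 in 20. NACL 4 was higher for Pdgfra (-2.53, others -4.48 to -4.37), Lrpap1 (3.24, others 2.90 to 2.95) and Ihh, a hedgehog ligand of visceral endoderm (-0.57, others -3.33 to -3.24). NACL 3 was lower for Cryge (-2.97, others -1.92 to -1.77) and Pcdh19 (-4.27, others -2.09 to -1.83). NACL 4 was also the array with the largest share of probes well above background (79.7%), and the part of this in its levels was not tested.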

How the results depend on the processing

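Of 231 counts of called genes under 28 other settings and 5 more chosen after seeing the data, 194 stayed within 1.5 times. With arrays centred on their median, 849 genes were called between NACL and 2iL, 411 were shared, 100 opposite and 160 NACL only; 379 of the 636 shared genes remained shared. The replicate block, whose numbers are not stated to pair Diff with ESC, gave 828 NACL calls, 407 shared and 115 opposite genes. With the replicate block in Diff and ESC and the cell line block in NACL and 2iL, these were 653, 338 and 88, with 147 NACL only. Cell line as the only block gave 126 opposite genes, and 408 shared genes remained. A fit of the 13 arrays alone gave 917 NACL calls, 455 shared, 122 opposite and 180 NACL only genes. An absolute change of at least 1 gave 109 opposite genes. At an adjusted p under 0.01 there were 671 NACL calls, 3212 calls of the difference of differences, 315 shared, 68 opposite and 111 NACL only genes. Genes well above background on all 13 arrays gave 413 shared and 172 NACL only. Diff 3 and ESC 3 alone, of the second scan day, gave 2464 Diff calls, 1645 calls of the difference, 318 shared, 62 opposite, 1249 differentiation only and 121 NACL only genes. NACL 4 and 2iL 3 alone gave 507 NACL calls, 2854 calls of the difference, 274 shared, 80 opposite, 2362 differentiation only and 135 NACL only genes. In these last 2 settings a lone array per group is assumed to vary like the other groups. Leaving out 1 array gave 6101 to 7116 Diff calls, 819 to 1661 NACL calls, 4284 to 4971 calls of the difference, 427 to 720 shared, 105 to 273 opposite, 3420 to 3927 differentiation only and 162 to 331 NACL only genes. The lowest NACL, opposite and NACL only counts came without 2iL 1. Except where fewer genes or arrays entered, the cause was not tested. Of 9372 values of named genes, 8849 kept direction and call, 522 lost the call and 1 reversed: Ccnd1, a cyclin induced by ERK, had a difference of differences of 0.11 with Diff 3 and ESC 3 alone. Probes near background limit the folds given as bounds.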
